A study of Mus musculus with 36 samples.

Results

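The genes described here are those of the cytosolic ribosomal proteins, the protein parts of the small (Rps) and large (Rpl) ribosomal subunits outside mitochondria. They were chosen by name alone: every gene name made of Rpl or Rps, a number and at most one of the letters a, x or l, with Rplp0, Rplp1, Rplp2 and Rpsa added. Of 20960 gene names in 3 deposited tables, 81 met this rule and 78 were listed in all 3. With a normalised read count of 10 or more in at least 2 libraries of a table, 76 of 80 listed members passed among pancreatic organoids, 77 of 79 among pancreatic cancer cells and 80 of 80 among embryonic stem cells. The members that did not pass were Rpl10l, Rpl30, Rpl39l and Rpl3l in organoids and Rpl26 and Rpl3l in cancer cells. Some ribosomal proteins carry names outside the rule, and they are given separately.

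The study compared mouse cells with and without Rreb1, a zinc finger transcription factor, and with and without TGFβ signalling. Of 36 samples, the 20 RNA-seq libraries were used, and those of ChIP-seq (15) and ATAC-seq (1) were not analysed here. E14 mouse embryonic stem cells (day 0) and the embryoid bodies grown from them (EBs, day 4) gave 2 libraries for each of 4 groups, labelled RREB1 WT or RREB1 KO on each day. The pancreatic ductal adenocarcinoma (PDA) line KSIC_806, whose labels all carry the mark S4 of unstated meaning, also gave 4 groups of 2. These were RREB1 WT or KO cells after 6 h with 2.5 µM SB505124, which blocks the kinase of the type I receptor for TGFβ, or 1.5 h with TGFβ (100 pM). Ligand and duration therefore cannot be told apart in any TGFβ comparison. Organoids of pancreatic epithelial cells (CIY_organoid) gave 1 library for each of the same 2 treatments, without doxycycline or with 1 µg/mL of it from plating, and the sources used here do not say what doxycycline switches on. Nothing in the labels says how the KO cells were made, whether they are 1 clone, or whether a group's 2 libraries were grown as separate cultures, so the p-values rest on a spread between libraries that may be technical.

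Rreb1 itself does not check the genotype labels. Its normalised read count was 1086 and 1019 in the day 0 libraries labelled WT and 2642 and 2830 in those labelled KO. In PDA cells under SB505124 it was 1458 and 1501 (labelled WT) against 2164 and 2195 (labelled KO), and under TGFβ 4293 and 4212 against 2886 and 2560. The count covers the whole gene and does not show which part was altered. In what follows WT and KO mean libraries labelled so, and every direction between them rests on those labels.

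A ribosome holds each of its proteins once, apart from the stalk proteins Rplp1 and Rplp2, and cells keep the messages for these proteins in step. Most of the messages belong to the TOP class: they begin with a C followed by a run of pyrimidines (C or T), through which LARP1 and the mTOR kinase set how much of the message is stored or translated. When ribosome assembly fails, free Rpl5 and Rpl11 bind Mdm2 and so stabilise p53. A few members are paralogs made mainly in some tissues, such as Rpl10l and Rpl39l, best known from male germ cells, and Rpl3l from muscle. Rps27l is a target of p53.

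The start sequence that defines the TOP class can be seen in the reference. Windows of 30 bases, 15 before the annotated RefSeq start and 15 from it, are shown for 6 members with a run of C or T at the start and for the paralogs Rpl39l and Rpl10l, which results below turn on (build GRCm38.p6, 5′ to 3′ on the gene's strand). Capitals mark the unbroken run of C or T that holds the annotated start base, which is the 16th letter. A window without capitals has a different base there. The 6 members were picked for their run. Over the 72 member sequences matched, the median run length was 0, so most had no run at that base. Rpl5, Rpl11, Rplp0 and Rpsa were among those without one, so its absence does not set Rpl39l and Rpl10l apart.
Rpl14 (chr9:120571502-120571531, +): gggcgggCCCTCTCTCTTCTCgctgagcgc
Rpl35 (chr2:39005117-39005146, -): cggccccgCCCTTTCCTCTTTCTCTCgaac
Rps6 (chr4:86857353-86857382, -): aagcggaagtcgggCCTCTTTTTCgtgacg
Rps18 (chr17:33955651-33955680, -): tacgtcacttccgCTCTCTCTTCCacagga
Rps21 (chr2:180257364-180257393, +): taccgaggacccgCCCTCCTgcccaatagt
Rplp2 (chr7:141447636-141447665, +): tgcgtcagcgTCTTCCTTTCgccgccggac
Rpl39l (chr16:10170213-10170242, +): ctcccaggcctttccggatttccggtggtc
Rpl10l (chr12:66284387-66284416, -): tttggcctccattttgcggctggcggtggg

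RefSeq promoter sequences, from 250 bases before to 50 after a start, were matched for 60 of the 81 members (72 sequences). A start base of C inside a run of at least 6 pyrimidines was present in 19.4% of them, against 3.95% of all 32851 promoter sequences and 1.33% of 75 from mitochondrial ribosomal protein genes. A run of at least 8 pyrimidines within 20 bases of the start was present in 41.7%, against 16% of all. An annotated start may lie some bases off the true one, so a missing run says only that these letters are not at the annotated base. The letters CCGGAAG, a core that ETS factors such as GABPA bind, occurred on either strand in 36.1% of member sequences, 34.7% of mitochondrial ribosomal protein gene sequences and 8.86% of all. AAGATGGC (YY1) occurred in 9.72% against 2.75% of all. It occurred in 16% of mitochondrial ribosomal protein gene sequences and 18.2% of 22 from TOP genes that encode no ribosomal protein. GGGCGG (SP and KLF factors) occurred in 58.3% against 35.7% of all, and in 52% and 59.1% of those other lists. TATAAA occurred in 8.33% against 13.6% of all, and in 6.67% and 18.2% of those lists. These matches describe the sequences and are not binding sites.

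All 81 members were found in RefSeq, on 19 chromosomes, with 14 on chromosome 7 and 4 on X. Processed copies are common: 63 members have at least 1 pseudogene named for them, 316 in all, and Rpl31 and Rps12 have 23 each. The reads were 50 bases long, and the sources used here do not say how reads that match several copies were counted, so levels of members with close copies are uncertain. Rpl30, Rpl34 and Rps27 were listed at no more than 108.5 in any library, Rpl26 only in PDA cells and there at 0 to 0.9, and RefSeq gives Rps4l as a transcribed pseudogene. No transcript lengths were used, so levels are compared between libraries. The genes called equally abundant below, those at or above the members' lower quartile of mean level, were picked without a correction for length.

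Depth was 19885697 to 29082712 reads in the EB libraries, 20410770 to 44504338 in PDA cells and 23914870 to 35808735 in organoids. All 6 markers of ductal epithelium were at 10 or more in every PDA and organoid library group. All 6 embryonic stem cell markers were so in every EB group, with summed levels of 101820 to 102780 (WT) and 113940 to 119960 (KO) at day 0, and 31633 to 32112 (WT) and 61791 to 62843 (KO) at day 4. The 5 markers of day 4 embryoid bodies reached 10 in 5 of 5 cases in WT day 4 (summed level 3677 to 6501) and 3 of 5 in KO day 4 (733 to 745). The part of these differences in the results on day 4 was not tested, and in bulk RNA fewer cells of a type and less RNA per cell cannot be told apart.

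In embryonic stem cells labelled KO the ribosomal protein messages were low as a block, and they rose when the cells were differentiated, while in WT they fell a little. The members together held 7.11% and 7.62% of the summed values in the WT day 0 libraries and 5.04% in both KO day 0 libraries. At day 4 they held 6.87% and 6.07% in WT and 7.41% and 7.38% in KO. The KO day 0 libraries were the lowest of the table.

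**Figure D1:**
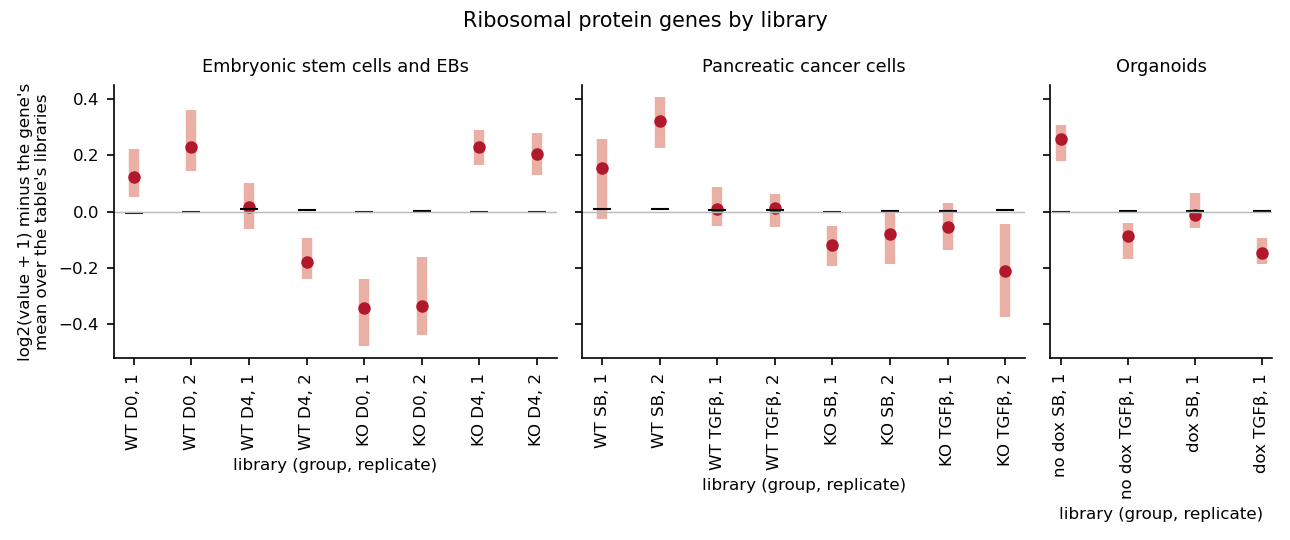
Members' log2(value + 1) in each library relative to each gene's own mean over the table's libraries: points are medians over members (80 in EBs, 77 in PDA cells, 76 in organoids), bars the quartiles, black dashes the median of all genes that passed. Both KO day 0 libraries (-0.35 and -0.34) lie below every other EB library, and the all-genes medians stay near 0.

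At day 0, 69 of 80 members were lower in KO than in WT and none was higher (limma, adjusted p under 0.05), where 33.3% of all 15227 genes tested were lower and 33.9% higher. The median member log2 fold change was -0.51, a change of -29.8%, with quartiles of -0.70 and -0.33, against a median near 0 over all genes. Large subunit members had a median of -0.55 (42 of 48 lower) and small subunit members -0.48 (27 of 32 lower). Genes outside the list that were at least as abundant as the members' lower quartile had a median of 0.10 (255 genes). The 11 members not past the threshold were Rpl12, Rpl21, Rpl23, Rpl30, Rpl34, Rpl3l, Rps15a, Rps26, Rps27, Rps27a and Rps27l.

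Rpl39l (chr16:10170197-10174911), the paralog of Rpl39 that lines the exit tunnel, fell furthest. Its normalised read count was 1183 and 1340 in WT day 0, 114 and 134 in KO day 0, 212 and 211 in WT day 4, and 284 and 313 in KO day 4. The WT day 0 libraries stood far above the rest and the KO day 0 libraries lowest, with no overlap between any of the 4 groups. At day 0 it was 10.1-fold lower in KO (-3.34 ± 0.12 SE on the log2 scale, adjusted p = 5.47e-11). Rpl39 itself was 7202 and 7963 in WT day 0, 4362 and 4338 in KO day 0, 5770 and 5212 in WT day 4, and 7665 and 8098 in KO day 4. Its log2 fold change at day 0 was -0.80 (adjusted p = 2.78e-07), so the paralog pair moved in the same direction by different amounts.

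Rpl10l (chr12:66283379-66284401), the paralog of the X-linked Rpl10, was 1599 and 1549 in WT day 0, 565 and 583 in KO day 0, 412 and 317 in WT day 4, and 444 and 440 in KO day 4. It was 2.74-fold lower in KO at day 0 (-1.45 ± 0.11 SE, adjusted p = 4.76e-08). Rpl10, a protein of the large subunit that joins late in assembly, was 22948 and 24135 in WT day 0 and 16618 and 15724 in KO day 0 (-0.54, adjusted p = 1.16e-05). Rpl37a (chr1:72711260-72713813), a large subunit protein, had the third largest fall: 11249 and 12005 in WT day 0, 4258 and 4244 in KO day 0, 9642 and 9165 in WT day 4, and 8635 and 8966 in KO day 4. It was 2.73-fold lower in KO at day 0 (-1.45 ± 0.06 SE, adjusted p = 3.59e-10), and its other 3 groups lay within 8635 to 12005.

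**Figure D2:**
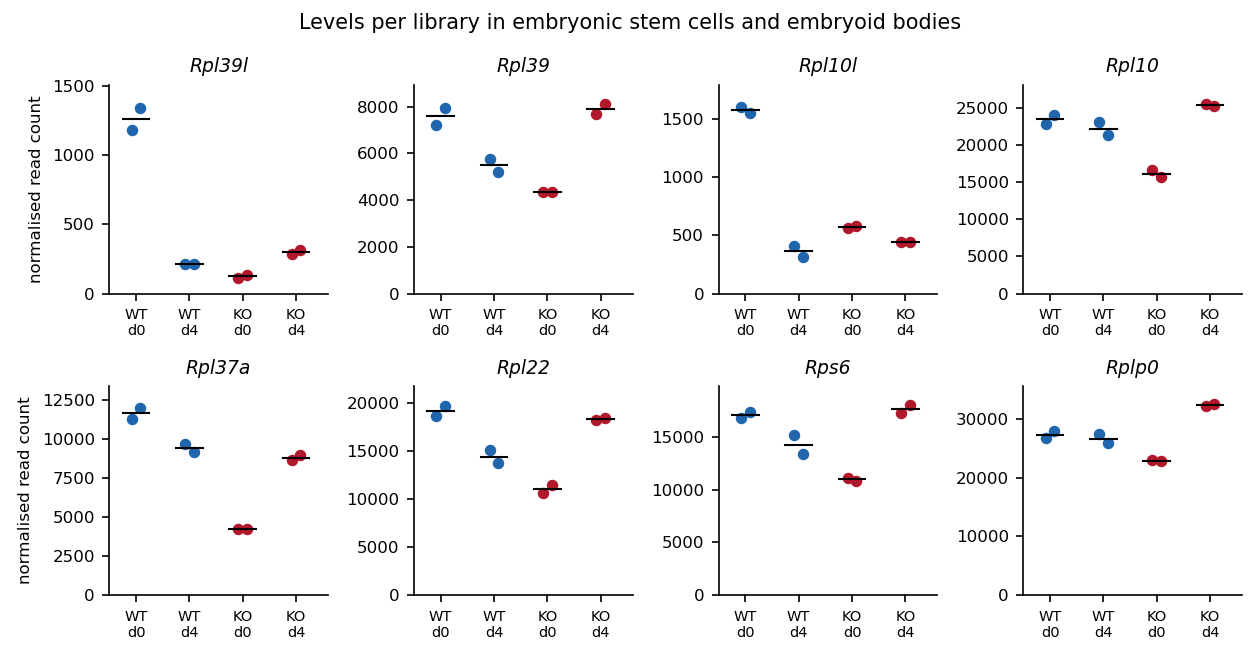
Normalised read counts of 8 members in the 8 EB libraries: each point is 1 library (blue WT, red KO), bars are the means of 2, and d0 and d4 are days 0 and 4. Rpl39l and Rpl10l were highest in WT day 0, while for Rpl39, Rpl10, Rpl37a, Rpl22, Rps6 and Rplp0 the lowest libraries were those of KO day 0.

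The members of known function outside translation followed the block at day 0. Rpl22 (chr4:152324436-152334082), which is dispensable for most translation and is needed by T cells, was 18687 and 19696 in WT and 10665 and 11442 in KO (-0.80 ± 0.07 SE, adjusted p = 2.69e-07). Rpl11, of the Mdm2-binding pair, was 14467 and 15893 against 8500 and 9207 (-0.78, adjusted p = 5.36e-07). Its partner Rpl5 was 17061 and 18361 against 15343 and 15266 (-0.21, adjusted p = 0.0249). The groups did not overlap for any of these 3, as for 84.7% of all genes in this contrast, and the fall of Rpl5 was the smallest. Leaving out WT replicate 2, KO replicate 1 or KO replicate 2 of day 0 ended the call on Rpl5 (adjusted p = 0.196, 0.0831 and 0.0949).

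Rps6, the substrate of the S6 kinases, was 16799 and 17421 in WT day 0 and 11154 and 10857 in KO day 0 (-0.64, adjusted p = 3.23e-06). Rps14, whose loss of a copy causes anaemia in a human myelodysplastic syndrome, was 26399 and 29275 against 19265 and 19121 (-0.53, adjusted p = 6.00e-05). Rpsa, the laminin receptor precursor, was 46610 and 50481 against 37662 and 39137 (-0.34, adjusted p = 0.00193). Each fell with no overlap between the groups. The falls of Rplp0, the base of the stalk (-0.25, adjusted p = 0.00555), and Rps19, the gene most often mutated in Diamond-Blackfan anaemia (-0.23, adjusted p = 0.0334), were smaller. Both calls ended without WT replicate 2 of day 0 (adjusted p = 0.0653 for Rplp0 and 0.253 for Rps19), and that on Rps19 also without KO replicate 2 (adjusted p = 0.231). Rps27l did not pass (4689 and 4941 against 4423 and 4682, adjusted p = 0.351).

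By day 4, 56 of 80 members had fallen in WT and none had risen, where 30.8% of all genes fell and 32.3% rose. The median was -0.26 (a change of -16.6%), against a median near 0 over all genes and -0.15 over equally abundant genes outside the list. Quantile normalization gave a median of -0.12 with 21 members called, which is -0.058 relative to the median of all genes. The largest falls were those of the paralogs Rpl39l (-2.57 ± 0.12 SE, adjusted p = 4.03e-10), Rpl10l (-2.12 ± 0.11 SE, adjusted p = 9.76e-10) and Rpl3l (-1.10 ± 0.37 SE, adjusted p = 0.0175). Rpl3l was low throughout, at 46 and 50 in WT day 0 and 25 and 19 in WT day 4, and leaving out any of these 4 libraries ended its call (adjusted p = 0.0554, 0.0849, 0.0517 and 0.155). Rps4l was 9530 and 9841 in WT day 0 and 5534 and 4367 in WT day 4 (-0.98, adjusted p = 3.69e-07). The number of members called was 24 without WT day 0 replicate 2 and 21 without WT day 4 replicate 2. These 2 replicates of WT day 4 differed by 0.20 in their member median, the widest gap of any EB group.

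In KO, 72 of 80 members rose from day 0 to day 4 and 2 fell, where 29.1% of all genes rose and 30.9% fell. The median was 0.56, a rise of 47.2%, against -0.02 over all genes and -0.11 over equally abundant genes. Rpl39l rose 2.41-fold (1.27 ± 0.12 SE, adjusted p = 7.31e-07), Rpl37a 2.07-fold (1.05 ± 0.06 SE, adjusted p = 7.35e-09) and Rpl7 1.82-fold (0.86 ± 0.08 SE, adjusted p = 3.43e-07). Rpl7, a large subunit protein, was 23589 and 22425 in KO day 0 and 41909 and 41692 in KO day 4. The members that fell were Rps4l (-0.51, adjusted p = 2.05e-04) and Rpl10l (-0.38, adjusted p = 0.00875, and 0.0516 without KO day 0 replicate 2). Those not past the threshold were Rpl12, Rpl30, Rpl34, Rpl3l, Rps27 and Rps27l.

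The difference between the KO and WT changes was tested directly as an interaction. It was positive and past the threshold for 75 of 80 members and negative for none, where 27.1% of all genes were positive and 28.6% negative. Its median was 0.82, against -0.01 over all genes and 0.06 over equally abundant genes, and it was past the threshold for 74 to 76 members when each library was left out. Rpl39l had the largest value (3.84 ± 0.17 SE, adjusted p = 7.07e-10), followed by Rpl10l (1.74 ± 0.16 SE, adjusted p = 5.82e-07) and Rpl37a (1.36 ± 0.09 SE, adjusted p = 3.70e-08). For Rpl10l it came from a smaller fall in KO, and for Rpl39l and Rpl37a from opposite changes. Rpl30, Rpl34, Rpl3l, Rps27 and Rps27l did not pass.

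**Figure D3:**
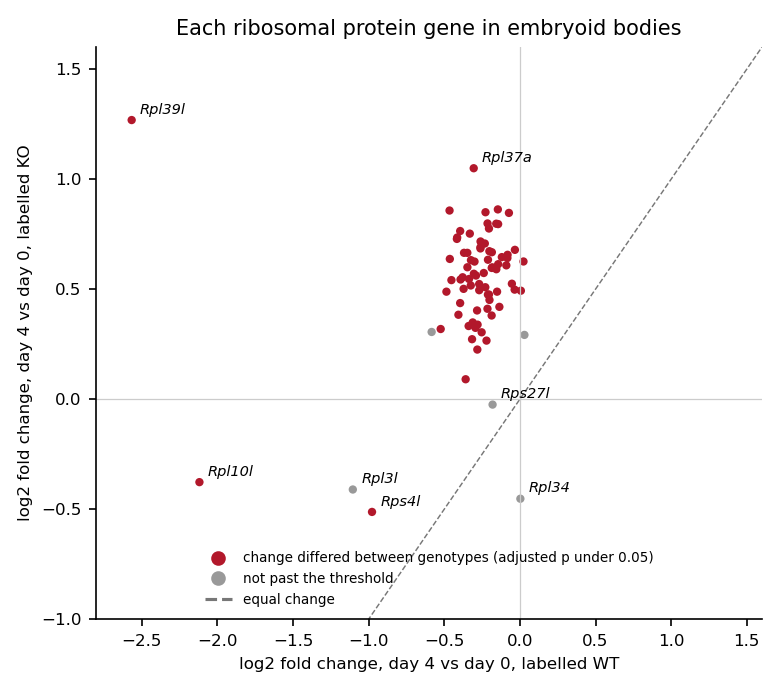
Fitted log2 fold change from day 0 to day 4 of each of the 80 members in WT (x axis) and KO (y axis): red points passed the test of the difference between the 2 changes, grey points did not, and the dashed line marks equal changes. Most points lie left of 0 and above 0, with Rpl39l, Rpl10l, Rpl3l and Rps4l apart from the rest.

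At day 4 the order of the genotypes was the opposite of that at day 0: 55 of 80 members were higher in KO and none was lower, where 27.8% of all genes were higher and 28.4% lower. The median was 0.28 against -0.01 over all genes and 0.14 over equally abundant genes. Rps21 was 12977 and 10212 in WT and 18591 and 17368 in KO (0.64 ± 0.09 SE, adjusted p = 4.15e-05). Rps27a, made as a fusion with ubiquitin, followed (0.55 ± 0.08 SE, adjusted p = 5.89e-05), and then Rpl37 (0.54 ± 0.08 SE, adjusted p = 3.13e-05). Without WT day 4 replicate 2 the count was 29 higher and 1 lower, and quantile normalization gave 26 higher and 1 lower with a median of 0.13, or 0.090 relative to all genes.

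Of 7 ribosomal proteins and paralogs with names outside the rule, 6 had a positive interaction past the threshold and none a negative one. Of all genes 27.1% were positive and 28.6% negative. Fau, Gnb2l1 (the name here for Rack1), Rps3a1 and the paralog Rpl36al had values of 0.63 to 1.02, and Rpl22l1 0.76, the paralog of Rpl22. Rpl22l1 differed in that it also rose in WT, from 2703 and 2954 to 4742 and 4167 (0.65), and in KO from 1394 and 1505 to 3772 and 3942 (1.41). Rpl7l1, a paralog that works in ribosome assembly, had the opposite sign at day 0 (0.47) and an interaction of -0.29 that did not pass.

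Of 26 TOP messages that encode no ribosomal protein, translation factors and snoRNA host genes among them, 20 had a positive interaction past the threshold and none a negative one (median 0.56), against 27.1% and 28.6% of all genes. At day 0, 19 of the 26 were lower and 3 higher in KO (median -0.42), against 33.3% and 33.9% of all genes. At day 4, 10 were higher and 1 lower (median 0.13), against 27.8% and 28.4% of all genes. The initiation factor Eif4a2 was 25025 and 26558 in WT day 0, 7126 and 5912 in KO day 0, 14263 and 13462 in WT day 4, and 16464 and 15346 in KO day 4 (interaction 2.19). The elongation factor subunit Eef1g had an interaction of 1.16 and the host gene Gas5 of 1.46. Of 77 mitochondrial ribosomal protein genes, 26 had a positive interaction and 4 a negative one (median 0.19), against the same 27.1% and 28.6% of all genes. At day 0, 44 of them were lower in KO and 7 higher (median -0.31), against 33.3% and 33.9% of all genes. In KO 10 rose and 27 fell by day 4 (median -0.11), against 29.1% and 30.9% of all genes.

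Genes of the p53 response went the other way at day 0. Of 11, 10 were higher and 1 lower in KO (median 1.33), against 33.9% and 33.3% of all genes. At day 4, 10 were higher and none lower (median 0.62), against 27.8% and 28.4% of all genes. Mdm2, the p53 antagonist, was 3191 and 3161 in WT day 0, 8052 and 8589 in KO day 0, 3781 and 3620 in WT day 4, and 6331 and 6681 in KO day 4. Sesn2, an inhibitor of mTOR complex 1 signalling, was higher in KO at day 0 by 1.58. The cell cycle inhibitor Cdkn1a was the exception at day 0 (-0.21). Of 16 genes for mTOR, LARP1 and MYC regulation, 10 were higher in KO at day 0 and none was lower (median 0.33). Of all genes 33.9% were higher and 33.3% lower. The regulators with the smallest adjusted p were Mnt, Rps6kb1, Rheb and Eif4ebp1 (0.44), all of them higher, and Tsc1 (0.43) was also among the 10. Myc rose in WT from 395 and 428 to 1084 and 1355 (1.56) and did not pass in KO (529 and 538 against 435 and 544). Whether any of these bears on the ribosomal protein messages was not tested.

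**Figure D4:**
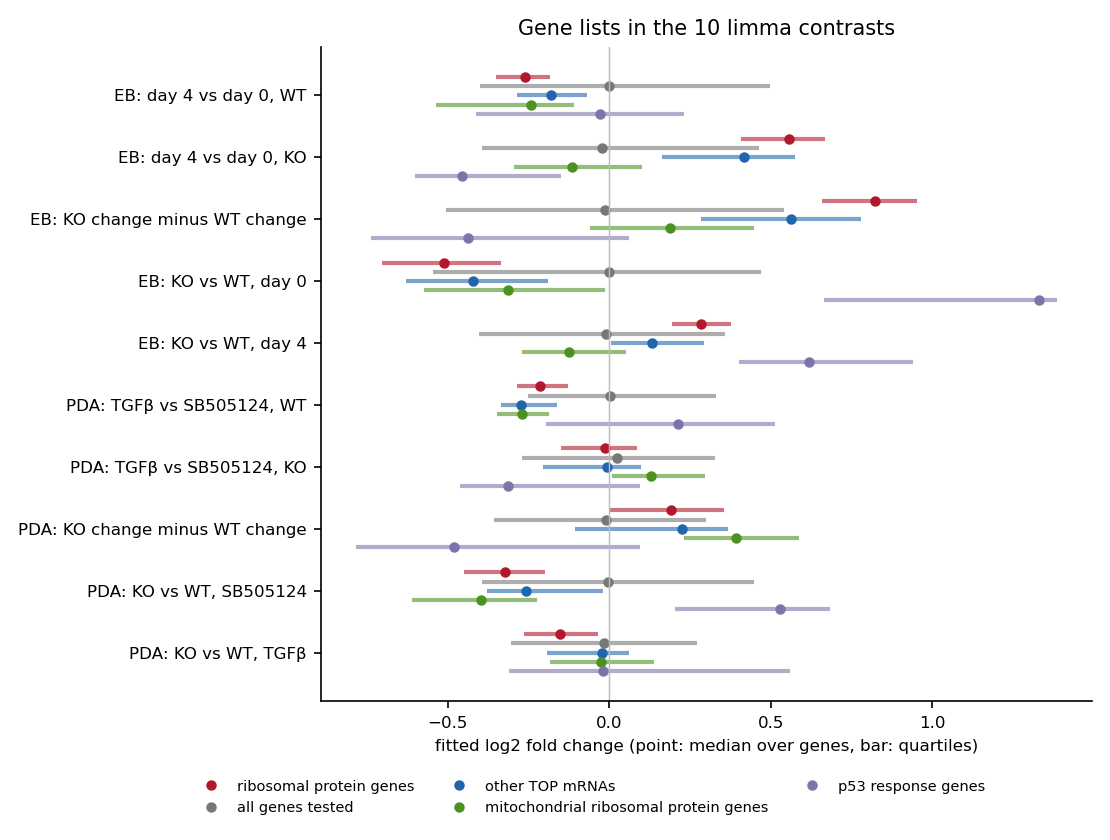
Fitted log2 fold changes of gene lists in the 5 EB and 5 PDA contrasts: points are medians over the genes of a list, bars the quartiles, and colours name the list. Ribosomal protein genes (red) and other TOP mRNAs (blue) lie on the same side of 0 in each of the EB contrasts, and p53 response genes (purple) lie to the right in KO against WT at both days.

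In the cancer cells the members held 4.58% and 5.12% of summed values in WT under SB505124, 4.25% in both WT libraries under TGFβ, 3.41% and 3.50% in KO under SB505124, and 3.85% and 3.56% in KO under TGFβ. The 2 WT libraries under SB505124 differed by 0.17 in their member median and those of KO under TGFβ by 0.16, against 0.0033 for WT under TGFβ and 0.04 for KO under SB505124. Over all genes, too, the replicates of these 2 groups differed most, with a chi-square per gene of 48.5 and 39.2, against 1.94 and 2.95 in the other 2. Over genes, replicate 1 minus replicate 2 in WT under SB505124 correlated at -0.51 with the same difference in KO under TGFβ. In that sense WT SB505124 replicate 1 and KO TGFβ replicate 2 departed from their partners alike. Every PDA contrast includes at least 1 of these groups, so each is given below also without these 2 libraries and, in turn, without their 2 partners. Only the spread of the 2 closest groups is left in those fits. Their medians are therefore given with each contrast, and nothing is concluded from their counts of members called.

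Under SB505124, 45 of 77 members were lower in KO than in WT and none was higher, where 27.2% of all 13226 genes were lower and 28.9% higher. The median was -0.32 (a change of -20.1%) against a median near 0 over all genes, while 514 equally abundant genes outside the list had a median of 0.15. Rps24 (chr14:24490678-24496960), a small subunit protein mutated in Diamond-Blackfan anaemia, was 29758 and 24022 in WT and 15431 and 14551 in KO (-0.84 ± 0.12 SE, adjusted p = 8.27e-04). Rps14 was 17771 and 22313 against 11272 and 11231 (-0.82 ± 0.12 SE, adjusted p = 0.00102). Rps23, a protein of the decoding centre, was 16874 and 17049 against 9542 and 9817 (-0.81 ± 0.06 SE, adjusted p = 2.59e-05). None of these groups overlapped, as for 76.8% of all genes in this contrast, and leaving out any 1 library gave between 34 and 56 members called. The median was -0.42 without WT SB505124 replicate 1 and KO TGFβ replicate 2, and -0.28 without their partners. Of 77 mitochondrial ribosomal protein genes 51 were lower and 1 higher (median -0.40). Marker lists of other cell types also moved with this contrast, each nearly all through 1 gene, and their part in it was not tested. Summed endothelial markers were 46 to 52 in WT and 1330 to 1358 in KO, nearly all of it Cdh5, with Pecam1 and Kdr at means of no more than 6. Summed embryonic stem cell markers were 1766 to 1915 in WT and 6336 to 6506 in KO, nearly all of it Klf4, with Pou5f1, Nanog and Zfp42 at means under 1. Summed markers of day 4 embryoid bodies were 180 to 205 in WT and 16 to 18 in KO, nearly all of it Eomes. Summed acinar markers were 128 to 140 in WT and 308 to 334 in KO, nearly all of it Cela1. Among the ductal markers, Epcam was 86 and 68 in WT and 241 and 247 in KO. Sox9 was 90 and 101 in WT and 26 and 37 in KO.

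TGFβ against SB505124 in WT cells gave 29 of 77 members lower and none higher, where 17.6% of all genes were lower and 19.4% higher. The median was -0.21 (a change of -13.8%) against a median near 0 over all genes. Of 514 equally abundant genes outside the list, 157 were lower and 95 higher (median -0.067). Of 77 mitochondrial ribosomal protein genes 42 were lower and none higher (median -0.27). Of 26 other TOP messages 13 were lower and 1 higher (median -0.27). Lower levels were therefore not particular to the members. Rps24 was 29758 and 24022 under SB505124 and 19461 and 19655 under TGFβ (-0.45 ± 0.12 SE, adjusted p = 0.0235). Rps4x, the X-linked small subunit protein, was 52496 and 45358 against 35289 and 37135 (-0.43 ± 0.10 SE, adjusted p = 0.0107), and Rpl21 36185 and 31792 against 25017 and 25563 (-0.42 ± 0.09 SE, adjusted p = 0.0089). The groups did not overlap for these 3, as for 69.9% of all genes in this contrast. The calls did not hold when the WT TGFβ group was reduced to 1 library: none was past the threshold without replicate 1 and 4 without replicate 2, and 16 without either KO library under SB505124, although the median stayed negative in every case (-0.30 to -0.11). Without the pair of libraries named above it was -0.30, and without their partners -0.11. The count was 13 under quantile normalization and 13 in a fit on these 4 libraries alone. Under quantile normalization the median was -0.14, or -0.088 relative to all genes.

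In KO cells TGFβ against SB505124 gave 6 of 77 members higher and none lower, where 20.6% of all genes were higher and 18.0% lower. The median of -0.01 became 0.10 when libraries were rescaled to the same total and 0.09 under quantile normalization, so its sign depended on the scaling. The 6 were Rpl9 (0.29), Rpl22 (0.29), Rps27l (0.29), Rpl35a, Rpl36a and Rpl31, all named as the whole of that count. Rps27l was 3598 and 3762 under SB505124 and 4545 and 4424 under TGFβ (adjusted p = 0.00878, and 0.0854 without KO SB505124 replicate 1). The count was 0 and 1 without KO SB505124 replicates 1 and 2, 3 without either WT TGFβ library, and 10 and 2 without KO TGFβ replicates 1 and 2. The median was 0.039 without the pair of libraries named above and -0.084 without their partners.

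The difference between these responses was positive and past the threshold for 20 of 77 members and negative for none, where 9.71% of all genes were positive and 12.1% negative. Its median was 0.19 against -0.01 over all genes, 0.36 without the pair of libraries named above and 0.033 without their partners, and 13 members were called without a filter on low values. Rps24 (0.71 ± 0.17 SE, adjusted p = 0.0266), Rpl21 (0.63 ± 0.13 SE, adjusted p = 0.0139) and Rpl9 (0.58 ± 0.13 SE, adjusted p = 0.0227) had the largest values. Without WT TGFβ replicate 1 or 2, or KO SB505124 replicate 1, 1 member was past the threshold, without KO SB505124 replicate 2 there were 2, and without KO TGFβ replicate 2 there were 8. In the same contrast 37 of 77 mitochondrial ribosomal protein genes were positive and none was negative (median 0.39). Of 26 other TOP messages 5 were positive and 1 negative (median 0.23).

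Under TGFβ the genotypes differed for 10 of 77 members, where 40.2% of all genes differed. Rpl7 (0.41 ± 0.11 SE, adjusted p = 0.0209) and Rpl31 (0.26 ± 0.06 SE, adjusted p = 0.0105) were higher in KO, where 21.2% of all genes were higher, and 8 were lower, where 19.0% were. The median was -0.15 against -0.02 over all genes. Rps23 was 14674 and 14938 in WT and 10444 and 9894 in KO (-0.54 ± 0.06 SE, adjusted p = 2.37e-04). Rpl34 (-1.52 ± 0.43 SE, adjusted p = 0.025) and Rpl30 (-0.91 ± 0.25 SE, adjusted p = 0.023) had larger falls at levels of 22.7 to 100.0 only. Rescaling to the same total gave 2 higher and 21 lower, and quantile normalization 2 higher and 28 lower. The shares of 21.2% and 19.0% belong to the fit without either change. No share of all genes is set beside the counts under either change, so nothing is concluded from those counts. Rescaling also moved the median of all genes by -0.083, and relative to all genes the member median was -0.135 before and after it. Under quantile normalization it was -0.22 relative to all genes. The count was 2 without either WT TGFβ library, 5 without KO TGFβ replicate 2, 21 without KO TGFβ replicate 1 and 16 without either WT SB505124 library. The median was -0.084 without the pair of libraries named above and -0.19 without their partners.

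Organoids had 1 library per condition, so their values carry no test and their 95% intervals cover counting error only. The members held 5.18% of summed values without doxycycline under SB505124, 4.14% under TGFβ, and 4.66% and 4.22% with doxycycline. TGFβ against SB505124 gave a median log2 ratio of -0.36 without doxycycline (74 of 76 members below 0). With doxycycline it was -0.14 (73 of 76 below 0). Over all genes the medians were near 0 (-0.0034) and -0.02, and over equally abundant genes -0.059 and 0.016. Mitochondrial ribosomal protein genes had medians of -0.23 (72 of 77 below 0) and -0.15 (66 of 77 below 0). Those of other TOP messages were -0.18 and -0.045. Lower levels were thus not particular to the members here either. Few members passed a 1.5-fold difference: 2 were lower without doxycycline, where 8.17% of all genes were lower and 8.48% higher, and none with it, where 7.28% were lower and 7.89% higher. Those 2 were Rps27l, which was 6236 under SB505124 and 3717 under TGFβ (log2 ratio -0.75, interval -0.80 to -0.69), and Rps4l, at 87.2 and 55.7. The member that went up most among those at 50 or more was Rpl3 (0.02, interval -0.0028 to 0.046). With doxycycline Rpl7 was the highest (0.09, interval 0.07 to 0.11) and Rps4l (-0.30, interval -0.73 to 0.10) and Rpl29 (-0.28, interval -0.38 to -0.19) were the lowest of those at 50 or more.

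**Figure D5:**
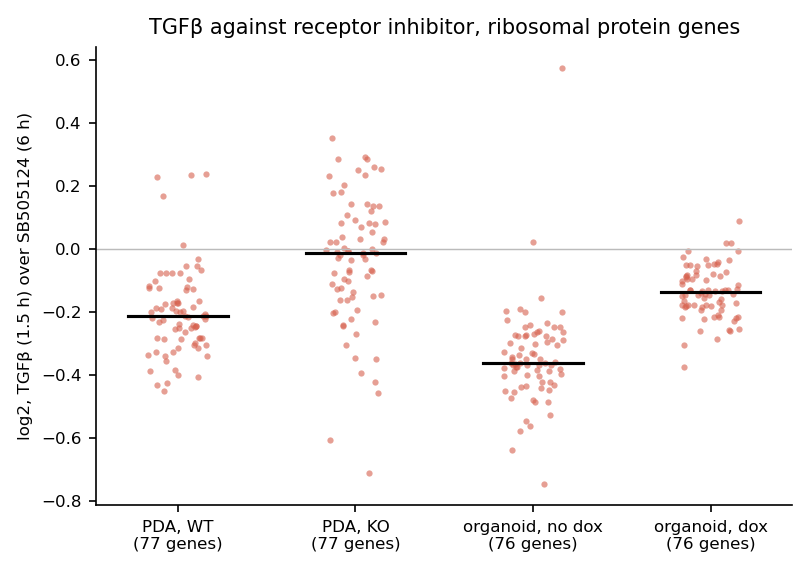
Each member's log2 difference between TGFβ (1.5 h) and SB505124 (6 h) in PDA cells (fitted fold change, 2 libraries a group) and organoids (ratio of 1 library each): points are genes, jittered sideways, and bars the medians. The medians are -0.21 (PDA WT), -0.01 (PDA KO), -0.36 (organoids without doxycycline) and -0.14 (with doxycycline).

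Doxycycline against none gave a median of -0.26 under SB505124 (-0.21 over equally abundant genes), which was -0.17 rescaled to the same total and -0.085 under quantile normalization, with 3 members at least 1.5-fold lower where 18.5% of all genes were, and none that much higher where 18.0% were. Among them were Rpl7 (30790 against 48135, log2 ratio -0.64) and Rps28 (3681 against 5561, -0.60). Rplp0, at 62474 against 65427, moved by -0.07, so members differed among themselves by far more than their counting intervals. Under TGFβ the median of -0.06 became 0.01 after rescaling to the same total and 0.02 under quantile normalization, and 1 member, Rps4l (86.0 against 55.7), was at least 1.5-fold higher where 16.9% of all genes were, and none that much lower where 18.3% were. Rps27l was 5138 against 3717 there (0.47, interval 0.40 to 0.53). Of the 11 p53 response genes 8 were at least 1.5-fold higher with doxycycline under either treatment (medians 0.83 and 0.97). Rpl10l and Rpl39l, with counts of 114 or more in every EB library, were at 0 to 1.1 in every organoid library.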

How the data were processed

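Total RNA was sequenced as unstranded single-end reads, per the labels' protocols. Per the submitters' processing notes, mm10 was the build, and Bowtie2, HOMER, HTSeq 0.6.1p1, FastQC 0.11.5 and DESeq2 3.4 were used in roles not stated. The deposited signal is 1 normalised read count per gene and library. Every library's values were whole multiples of 1 step (100% within 0.001), which gave the reads and depth. No transcript lengths were used.

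Genes with a value of 10 or more in at least 2 libraries of a table were tested as log2(value + 1) with limma 3.58.1 (R 4.3.3), with its variance trend, on a table's 8 libraries as 4 groups of 2. P-values were two-sided, with Benjamini-Hochberg adjustment over all genes tested, and adjusted p under 0.05 counted as called. Fold changes understate those of low genes. The fit was tested on simulated data. No pair of replicates agreed within sampling noise. The labels do not say that replicate numbers pair libraries, so no block was used. Organoid ratios have 1 library per condition and exact 95% counting intervals. Alternatives were pseudocount 5, no filter, rescaling, quantile normalization, edgeR 4.0.16 on recovered reads, a replicate block, each library left out and, chosen after seeing the data, fits on the 2 groups compared alone and on 6 PDA libraries.

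The members and lists were chosen with earlier results of these data known. Named were 8 members with known extra functions, the paralogs, and, for each contrast, up to 3 members called in each direction with the largest change and no overlap between groups. In organoids they were the 3 largest ratios each way with at least 50 in the higher library. Of other lists, up to 4 genes with the smallest adjusted p were named, and any beyond that were chosen after their values were seen. Values of some single genes are not reported here.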

Additional observations from a re-analysis of the deposited data

Results flagged for a closer look

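The members listed here were named for the interaction by the rule above and changed differently in WT and KO. The test was of the difference itself (limma interaction, KO change minus WT change, adjusted over all genes tested). They are not all that passed. In EBs 75 of 80 members had a positive difference past the threshold, where 27.1% of all genes did. In PDA cells 20 of 77 did, where 9.71% of all genes did.

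In embryoid bodies, from day 0 to day 4, the difference was 3.84 for Rpl39l, 1.74 for Rpl10l, 1.36 for Rpl37a, 1.15 for Rpl22 (1.145), 0.951 for Rpl11, 0.946 for Rps6, 0.783 for Rpsa, 0.687 for Rps14, 0.602 for Rps19, 0.557 for Rpl5 and 0.533 for Rplp0 on the log2 scale. Each was positive. For 10 of these 11 genes both KO day 4 libraries lay above both KO day 0 libraries, and Rpl10l was the exception. Between these groups there was no overlap, in either direction, for 76 of 80 members and 12029 of 15227 genes. The 11 were picked by a test that used these same libraries, so their order is a description only.

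In PDA cells, from SB505124 to TGFβ, the difference was 0.705 for Rps24, 0.626 for Rpl21, 0.577 for Rpl9, 0.533 for Rpl22, 0.460 for Rps27l and 0.324 for Rpl11. Of these 6, Rpl11 and Rpl22 were named for both contrasts and so stand in both lists. Rps24, Rpl21 and Rpl9 also passed in EBs, while Rps27l did not. Leaving out either WT library under TGFβ ended the call on each of these 6 (adjusted p from 0.0637 to 0.121), and leaving out a KO library under SB505124 ended it in all but 1 of 12 fits (adjusted p from 0.0479 to 0.108).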

How the results depend on the processing

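Counts of members called under an alternative, here and above, stand without the share of all genes called in the same fit. No change in those counts is read as particular to the members. In EBs none of the 5 medians changed sign under any alternative run. In PDA cells and organoids 2 medians changed sign. For TGFβ against SB505124 in PDA KO, where the median is -0.01, it was 0.10 (0.0971) rescaled to the same total and 0.087 under quantile normalization, with 14 and 17 members called against 6, and Rpsa became called at 0.20 (adjusted p = 0.0459). For doxycycline against none under TGFβ it was 0.0060 and 0.020. Rescaling moved the median of all genes by 0.11 in the first of these and by -0.15 in PDA KO against WT under SB505124; relative to all genes the member medians there were -0.036 and -0.32 with and without rescaling.

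Rescaling to the same total and quantile normalization gave PDA medians of -0.48 and -0.47 for KO against WT under SB505124, and under TGFβ -0.23 and -0.25 with 23 and 30 members called. In EBs rescaling gave a KO against WT median at day 4 of 0.19. Quantile normalization gave there 0.13 with 27 called, for WT day 4 against day 0 -0.12 with 21 called, for the EB interaction 0.66, and for the WT response in PDA cells 13 called. In organoids the TGFβ median without doxycycline was -0.29 under it, and that of doxycycline under SB505124 was -0.17 rescaled and -0.085 under it. Without a filter on low values 13 members were called in the PDA interaction, the test then running over more genes. Fits on the 4 libraries compared alone, chosen after seeing the data, called 13 in the PDA WT response and 3 in that of KO. Also chosen after seeing the data were fits without WT SB505124 replicate 1 and KO TGFβ replicate 2, or without their partners. They called 75 and 56 members in the WT response, 29 and 59 in that of KO, 73 and 56 in the interaction, 74 and 63 between genotypes under SB505124, and 42 and 56 under TGFβ, with a spread from the 2 closest groups only. Those closest groups had a chi-square per gene of 1.94 and 2.95, against 48.5 and 39.2 in the groups that lost a library. No share of all genes called is set beside these counts, so nothing is concluded from them. The first of these fits gave medians of -0.30 (WT response), 0.039 (KO response), 0.36 (interaction) and -0.42 (genotypes under SB505124). The second gave -0.11 for the WT response and 0.033 for the interaction. In the WT response Rplp0 was then -0.21 in the first and Rps14 0.11 in the second, and in the interaction Rplp0 was 0.26 in the first, each with the opposite sign to the fit on 8 libraries.

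With each library left out in turn, PDA counts ranged from 0 to 34 (WT response), 0 to 10 (KO response), 1 to 24 (interaction), 34 to 56 (genotypes under SB505124) and 2 to 21 (under TGFβ). Their medians ranged from -0.30 to -0.11, -0.084 to 0.039, 0.094 to 0.27, -0.42 to -0.28 and -0.19 to -0.084. EB counts ranged from 21 to 61 (WT day 4), 69 to 74 (KO day 4), 74 to 76 (interaction), 60 to 70 (genotypes at day 0) and 30 to 59 (at day 4). Their medians ranged from -0.35 to -0.17, 0.56 to 0.60, 0.72 to 0.90, -0.57 to -0.46 and 0.18 to 0.40. A group left with 1 library was assumed to vary like the others. The cause of these changes was not tested.

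The replicate block called 16 members in the PDA WT response, 3 in that of KO and 5 in the interaction, and moved no other count of members called by over 1.5 times. Deviations of same-numbered libraries correlated at -0.034 to 0.090 between EB groups and -0.51 to 0.14 between PDA groups. These correlations gave no sign that the numbers pair libraries, though they cannot exclude it. edgeR on the recovered reads (100% of values whole) called 31, 4, 18, 44 and 10 members in PDA cells and 57, 74, 75, 72 and 56 in EBs, in the order of contrasts above. Levels per kilobase were not run, for want of transcript lengths. Groups of 2 limit precision.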
